A study of Mus musculus with 12 samples.

Results

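Potassium channel genes were taken here as the protein-coding mouse genes whose symbol starts with Kcn. The gene table held 94 of them, and the 2 on the X chromosome were left out, which gave 92 of 21900 protein-coding genes. The study profiled 5-methylcytosine (m5C), a methylated form of cytosine, in RNA from the hippocampus of female C57BL/6 mice of wild-type genotype. Mice labelled young were 3 months old and mice labelled as naturally aged were 18 months old, and the labels name no agent for either group. RNA was broken into fragments and pulled down with an m5C antibody, and each of the 6 pulled-down libraries (3 per age) was set against its own input library, which was not pulled down. The result is 1 list of peaks per pulled-down library, where a peak is a stretch of the genome at which fragments were enriched over input. Whether the 3 young and the 3 aged samples were separate animals is not stated in the labels, so a p-value covers only sample-to-sample spread, part of which may be technical.

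Potassium channels let potassium ions leave or enter the cell, and in hippocampal neurons they set the resting potential, end the action potential and limit repetitive firing. Most are voltage-gated (Kv) channels built from pore-forming alpha subunits, with auxiliary subunits that alter their gating or traffic. Inward rectifiers (Kir), background channels with paired pore domains (K2P) and calcium-activated channels (BK and SK) hold the membrane near rest or couple it to calcium and to G protein signalling. Methylation of cytosine in mRNA is placed mainly by NSUN-family enzymes and is recognised by RNA-binding proteins that act on export and stability.

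Read depth per library is unknown, and the 6 lists held 8549 to 10392 peaks at 3 months and 14008 to 15189 at 18 months. Markers of excitatory hippocampal neurons were covered: 9 of 10 had a peak, and 7 of them in all 6 lists, among them Prox1 and Camk2a. Peaks were also found in 8 of 8 astrocyte, 7 of 8 oligodendrocyte, 7 of 8 endothelial and mural, 6 of 8 inhibitory neuron, 3 of 8 microglial and 1 of 6 choroid plexus markers. Kcnj10, Kcnj8, Kcne2 and Kcnj13 are among these markers and are channel genes themselves. A peak needs enough transcript as well as modification, and in tissue of mixed cells fewer cells of a type and less RNA per cell cannot be told apart.

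Channel genes carried more peaks in every aged list than in any young list, and a slightly larger share of each list. Young lists had a peak in 26, 25 and 28 channel genes and aged lists in 38, 30 and 35. The ages did not overlap, at 26.3 ± 1.53 (SD, n = 3) young and 34.3 ± 4.04 aged genes (two-sided exact permutation p = 0.1). With 3 lists per age 0.1 is the smallest p such a test can give, so none could pass 0.05, and p-values are not repeated for the genes and families below, which are described by their counts. The aged-to-young ratio was 1.30 for channel genes and 1.25 for all genes with a peak. When every list was cut to its 8549 highest-scoring peaks, both ages had 24.3 ± 1.15 channel genes (n = 3, exact permutation p = 1).

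The ages lay further apart in the number of peaks within channel genes. There were 34, 32 and 37 peaks in the young lists and 65, 55 and 65 in the aged ones, so no young list reached any aged list. The means were 34.3 ± 2.52 and 61.7 ± 5.77 (n = 3, two-sided exact permutation p = 0.1), a ratio of 1.80, against 1.51 for the lists as a whole. As a share of the list, channel peaks made up 0.344%, 0.374% and 0.356% at 3 months and 0.428%, 0.393% and 0.455% at 18 months. These shares did not overlap either (0.358% ± 0.0153 and 0.425% ± 0.0311, n = 3, exact permutation p = 0.1). In lists of equal length there were 31 ± 1.73 young and 37 ± 1.73 aged channel peaks (n = 3, exact permutation p = 0.1), a difference of 6 peaks in place of 27.3.

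**Figure D1:**
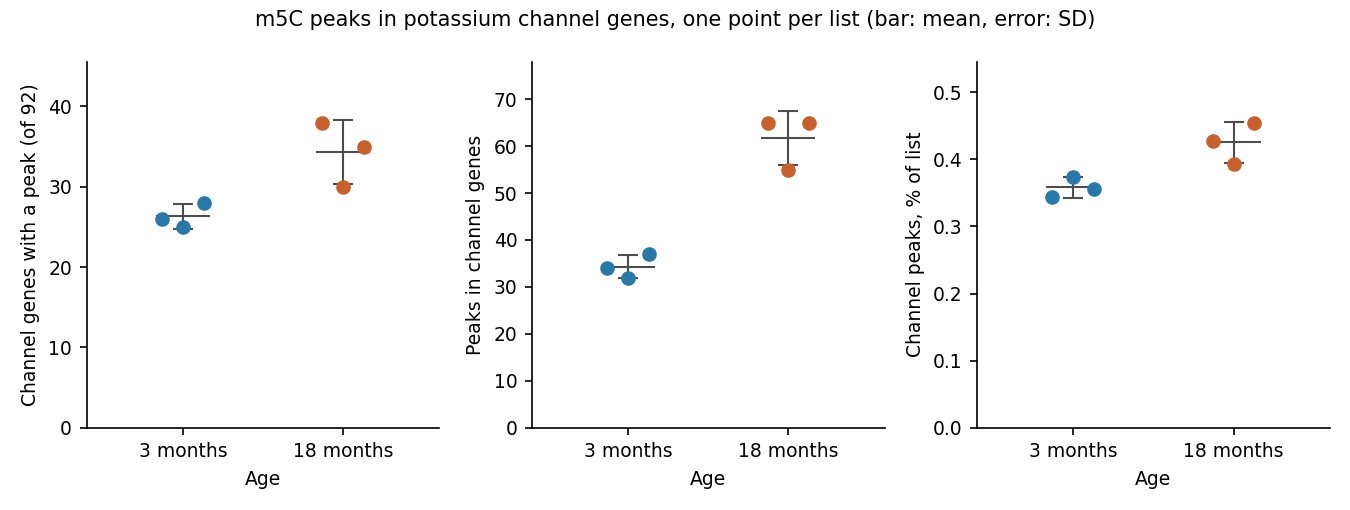
Number of channel genes with a peak, number of peaks in channel genes, and channel peaks as a percent of the list (y axes) at 3 and 18 months (x axis), 1 point per list with the mean and SD of 3 lists. In all 3 panels the aged points lie above the young ones, with peak counts of 32 to 37 against 55 to 65.

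The authors gave each peak a score from 50 upward, which is used here only within a list. In the young lists 35.3%, 46.9% and 45.9% of channel peaks scored above the median of their own list, and in the aged lists 55.4%, 58.2% and 53.8% did. The lists differ in length, so no change is read from these shares.

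Of the 92 genes, 49 (53.3%) had a peak in at least 1 list, against 43.4% of all protein-coding genes. Longer genes more often had a peak, both here and genome-wide. Of channel genes under 10 kb 40.0% had a peak and of those of 200 kb or more 66.7%, against 22.5% and 78.8% of all genes in these classes. The median span was 46.7 kb for channel genes with a peak and 19.7 kb for those without. Peaks in all 6 lists were found in 13 of the 49 genes (26.5%), next to 32.0% of all 9495 genes with a peak.

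The 49 genes fell into few clear age patterns. Peaks were present in 3 of 3 aged and 0 of 3 young lists in 4 of the 49 (8.16%), among them Kcnip3, Kcnc2 and Kcnd3, and 4.23% of all genes with a peak met that rule. In lists of equal length 1 channel gene did, none of these 3, while the number over all genes went from 402 to 97. The opposite pattern was met by Kcnk9 alone, beside 0.811% of all genes, and by 2 channel genes without aged replicate 1 (Kcnmb4 joined) or without aged replicate 2 (Kcnh6 joined). Over all genes the young-only number was 77, and 122 and 98 with these lists left out. A peak in more aged than young lists was found in 22 genes (44.9%) and in more young than aged lists in 8 (16.3%), where all genes gave 42.7% and 17.0%. The median difference in lists was 0 for both sets. Peak counts that did not overlap, with every aged list above every young one, were found in 9 channel genes (18.4%), and the background for this rule was 11.9% of genes. They included Kcnab2, Kcnma1, Kcnj6, Kcnh7, Kcnc2, Kcnip3 and Kcnd3. With every young list higher there was only Kcnk9 (background 0.958%).

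**Figure D2:**
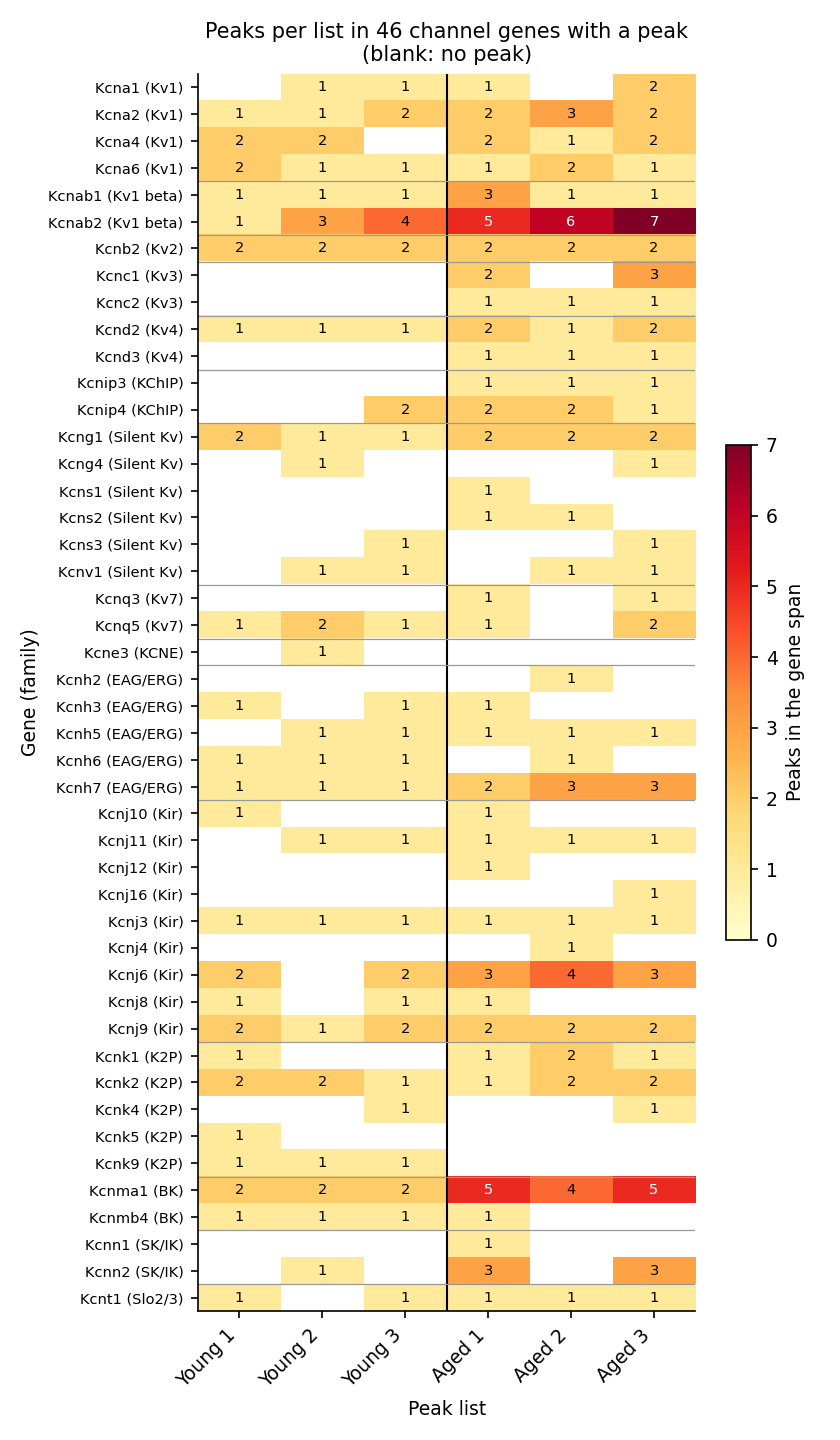
Number of peaks in the span of 46 channel genes with a peak (rows, grouped by family) in each of the 6 lists (columns); blank cells hold no peak and the line divides the ages. Kcnab2 reaches 7 peaks and Kcnma1 5, both at 18 months.

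Among the pore-forming Kv1 subunits, which carry low-threshold currents in axons, Kcna2 had the highest scores. It had 1, 1 and 2 peaks in the young and 2, 3 and 2 in the aged lists, all in a single region that ran to the 3' end of the gene on chromosome 3, from 107103945 to 107115005. Its best score was 3100 in every list, a value that many peaks share and near which the scale is saturated. Kcna6 had a peak at its 3' end in all 6 lists, and a further peak near its start in young replicate 1 and aged replicate 2. Kcna4, the subunit of an inactivating current, had peaks in 5 of 6 lists. Kcna1 had a peak in 2 young and 2 aged lists. Peaks in the Kv1 family numbered 4.67 ± 0.577 (SD, n = 3) at 3 months and 6.33 ± 0.577 at 18 months. Kcna3, Kcna5, Kcna7 and Kcna10 had none.

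Of the Kv1 auxiliary beta subunits, Kcnab2 was the channel gene with the most peaks. It had 1, 3 and 4 peaks in the young lists and 5, 6 and 7 in the aged lists, with no overlap between the ages (2.67 ± 1.53 and 6.0 ± 1.0). The gene lies on the minus strand of chromosome 4 from 152390744 to 152477549, and its peaks fell into 7 regions, 6 of them only 42 to 133 bases wide. The other, of 471 bases from 152477401 to 152477871, began before the annotated gene start and overlapped the span of another gene, Nphp4. It had a peak in young replicate 3 and in the 3 aged lists, and which gene these peaks belong to was not tested. One of the narrow regions, from 152407127 to 152407206, had peaks in the 3 aged lists only, with scores of 414, 179 and 238. A neighbour from 152403036 to 152403080 had a peak in all 6 lists, scoring 416, 126 and 362 at 3 months and 687, 186 and 450 at 18 months. In lists of equal length Kcnab2 had 1, 3 and 3 young and 4, 5 and 3 aged peaks, so the ages then touched. Kcnab1, which confers inactivation on Kv1 channels, had 1 peak in each list but aged replicate 1, which had 3. A region of 121 bases on chromosome 3, from 65364602 to 65364722, held a peak in 5 lists, and the peak of young replicate 2 lay elsewhere in the gene. Kcnab3 had none.

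The Kv2 genes encode the main delayed rectifiers of pyramidal cell bodies. Kcnb2 had 2 peaks in each of the 6 lists. They lay in the same 2 regions, at 25438 bases from the gene start and 7384 bases from the gene end. 

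Kv3 channels open at positive potentials and allow fast firing. Kcnc1 had no peak in young lists and 2, 0 and 3 in aged lists. Kcnc2 had 1 peak in each aged list and none in young ones, but in a different region of the gene in each, with best scores of 95.7, 79.8 and 118. In lists of equal length Kcnc2 had a peak in aged replicate 3 only.

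Kv3 genes are known for their expression in fast-spiking inhibitory neurons, and markers of inhibitory neurons also had more peaks at 18 months. Of the 8 markers, 0, 0 and 2 had a peak in the young lists and 5, 3 and 4 in the aged lists. Summed over the list there were 0 to 2 young and 3 to 6 aged peaks. Gad1 had peaks in 3 aged and 0 young lists and Gad2 in 2 and 0, while Pvalb and Vip had no peak in any list. Peaks in astrocyte markers numbered 10, 6 and 9 in the young and 18, 15 and 13 in the aged lists, and in excitatory neuron markers 15, 15 and 20 and 26, 21 and 26, so these did not overlap between the ages either. Those in oligodendrocyte markers touched, at 9, 4 and 6 young and 12, 9 and 10 aged peaks, and those in microglial, endothelial and mural, and choroid plexus markers overlapped. The part of these cell types in the Kcnc1 and Kcnc2 results, and in the others that are higher with age, was not tested.

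Kv4 channels carry the transient A-type current of dendrites, and KChIP proteins, encoded by the Kcnip genes, are their calcium-binding subunits. Kcnd2, the main Kv4 gene of hippocampal pyramidal cells, had a peak in all 6 lists, with 1 per young list and 2, 1 and 2 in the aged lists. Its main region, on chromosome 6 from 21727165 to 21727952, was absent from young replicate 1. Kcnd3 was aged-only, with 1 peak per aged list at scores of 88.3, 70.8 and 74.0, in regions 1558 and 6990 bases from the gene end. No peak of Kcnd3 was left in lists of equal length. Kcnip3, also known as DREAM, had its single region at the 3' end of the gene on chromosome 2, from 127456498 to 127458388, with scores of 114, 242 and 241 in the aged lists and no peak in the young lists. At equal list length it was left with 2 aged lists. Kcnip4 had 0, 0 and 2 young and 2, 2 and 1 aged peaks, and Kcnip1 and Kcnip2 had none.

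The silent Kv subunits form no channel alone and modify Kv2. Of 10 such genes 6 had a peak, and the family gave 2.67 ± 0.577 peaks in young and 4.33 ± 0.577 in aged lists. Kcng1 had the most, with 2, 1 and 1 young and 2, 2 and 2 aged peaks. Kcng4, Kcns1, Kcns2, Kcns3 and Kcnv1 had peaks in 1 to 4 lists. Kcnf1, Kcng2, Kcng3 and Kcnv2 had none.

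Kv7 channels, encoded by the Kcnq genes, carry the M-current that muscarinic receptors close. Kcnq3, an M-channel subunit, had peaks in aged replicates 1 and 3 only. In Kcnq5 a region on chromosome 1 from 21404932 to 21405058 had peaks in the 3 young lists, at scores of 119, 54.4 and 70.9, and in no aged list, although the other 2 regions of the gene had peaks in aged lists.

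Kcnq1 needs separate treatment. All 59 peaks within its span, over the 6 lists, lay on the minus strand inside the span of Kcnq1ot1, a long non-coding RNA transcribed antisense to Kcnq1 that silences neighbouring imprinted genes. They lay within chromosome 7 from 143213111 to 143296547, numbering 8, 8 and 9 in the young and 14, 10 and 10 in the aged lists (8.33 ± 0.577 and 11.3 ± 2.31). They were not counted for Kcnq1, which then had no peak. Counting them for Kcnq1 would have added a gene to all 6 lists and made it the channel gene with the most peaks. The span of Kcnmb3 held 1 peak on the other strand in each list and that of Kcnk7 1 in young replicate 2, and these were not counted either.

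**Figure D3:**
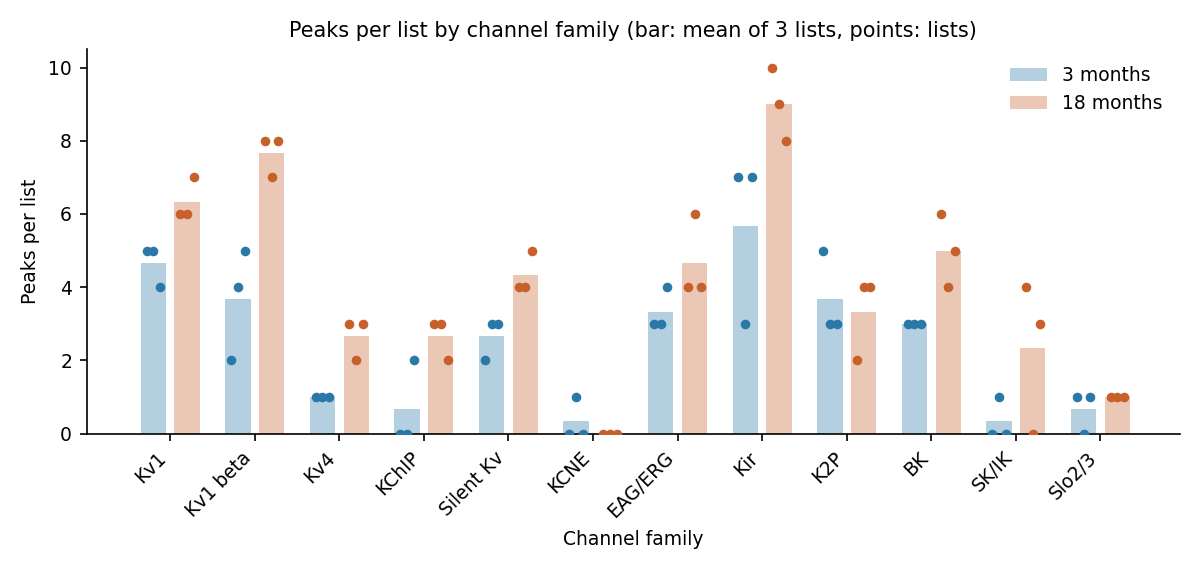
Peaks per list (y axis) summed over the members of 12 channel families (x axis), with bars for the mean of 3 lists and points for the lists. In 6 of them every aged point lies above every young one, among them Kv1 beta at 2 to 5 against 7 to 8. The lists as a whole did not overlap either, at 8549 to 10392 young and 14008 to 15189 aged peaks.

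Of the EAG, ERG and ELK channels, which include the cardiac and neuronal ERG currents, 5 of 8 had a peak. Kcnh7, an ERG channel of neurons, had 1 peak in each young list and 2, 3 and 3 in the aged lists (1.0 ± 0 and 2.67 ± 0.577). The region common to all lists, on chromosome 2 from 62697060 to 62701106, scored 2375, 1950 and 1431 at 3 months and 2790, 2945 and 3100 at 18 months. The additional aged peaks scored under 100. With lists of equal length Kcnh7 had 1 peak in each of the 6 lists. Kcnh5 had peaks in 5 lists, Kcnh3 in 3 and Kcnh2 in 1. Kcnh6 had them in the 3 young lists, in a different region in young replicate 3, and in aged replicate 2, and at equal length in the young lists only. Kcnh1, Kcnh4 and Kcnh8 had none.

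Inward rectifiers hold the resting potential, and the GIRK members among them open on G protein signalling. The GIRK genes Kcnj6, Kcnj9 and Kcnj3 had the most peaks of the family, while Kcnj5 (GIRK4) had none. Kcnj3 (GIRK1) had 1 peak in each of the 6 lists, in a region of 3335 bases that ended at the gene end, with scores of 650, 1004 and 3100 at 3 months and 1571, 2524 and 3207 at 18 months. Kcnj9 (GIRK3) had 2, 1 and 2 young and 2, 2 and 2 aged peaks. Kcnj6 (GIRK2) had 2, 0 and 2 young and 3, 4 and 3 aged peaks, which did not overlap (1.33 ± 1.15 and 3.33 ± 0.577). One of its 4 regions, at the very start of the gene on chromosome 16 from 94997187 to 94997696, had peaks in the 3 aged lists only, with scores of 114, 199 and 92.4. At equal list length the counts of Kcnj6 overlapped, at 2, 0 and 2 against 2, 4 and 2.

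Other rectifiers had few peaks. Kcnj11, the pore of the ATP-sensitive channel, had a peak in 2 young and 3 aged lists, and Kcnj10, the astrocyte rectifier, in 1 of each. Kcnj8, a vascular ATP-sensitive subunit, had one in 2 young lists and 1 aged list. Kcnj4, Kcnj12 and Kcnj16 had a peak in a single aged list each, and Kcnj1, Kcnj2, Kcnj13, Kcnj14 and Kcnj15 had none. The family summed to 7, 3 and 7 peaks in the young and 10, 9 and 8 in the aged lists.

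K2P background channels showed no excess at 18 months. They had 5, 3 and 3 young and 2, 4 and 4 aged peaks, which overlapped (3.67 ± 1.15 and 3.33 ± 1.15). Kcnk2 (TREK-1), a mechanically gated channel, scored near the top of the scale, with 3100, 2593 and 3228 in the young and 3100, 3176 and 3100 in the aged lists. All of these came from a single region of 407 bases on chromosome 1 from 189343301 to 189343707, at an annotated start site 59075 bases inside the gene. This region also overlapped the span of another annotated gene, A430027H14Rik. Whether the peaks belong to Kcnk2 or to that gene was not tested. Kcna6, Kcnab1, Kcnab2, Kcnh2, Kcnh6, Kcnh7 and Kcnn2 each also had 1 region that overlapped another annotated gene span. For these the gene of origin was not tested either. Kcnk9 (TASK-3), an acid-sensitive background channel, was the only young-only gene. Its region on chromosome 15 from 72512119 to 72513044 scored 70.7, 165 and 73.2 at 3 months. They lay at percentiles 20.8, 61.3 and 25.8 of their lists. The strand of Kcnk9 was read from these peaks, and it was no longer called when peaks scoring under 100 were left out. Kcnk1 had peaks in 1 young and 3 aged lists, Kcnk4 in 1 of each and Kcnk5 in 1 young list, and the other 9 members had none.

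Calcium-activated channels end bursts of firing. Kcnma1, the pore of the BK channel, had 2 peaks in each young list and 5, 4 and 5 in the aged lists, with no overlap (2.0 ± 0 and 4.67 ± 0.577). It had 6 regions in a gene of 712823 bases on chromosome 14, and none of them had a peak in all 6 lists. Young replicate 2 used 2 regions that the other young lists lacked, and each aged list had peaks in regions of both sets. With lists of equal length Kcnma1 had 2, 2 and 1 young and 4, 4 and 1 aged peaks. Kcnmb4, the neuronal BK beta subunit, had a peak in the 3 young lists and aged replicate 1, with scores between 73.5 and 219, and at equal length in the young lists only. Kcnn2, the SK2 channel, which adds to the afterhyperpolarisation, had 0, 1 and 0 young and 3, 0 and 3 aged peaks, so aged replicate 2 matched the young lists. Kcnn1 had a single peak. Kcnt1 (Slack), a sodium-activated channel, had peaks in 2 young and 3 aged lists. Kcnmb1, Kcnmb2, Kcnmb3, Kcnn3, Kcnn4, Kcnt2 and Kcnu1 had none, and neither did Kcne1, Kcne2, Kcne4 or the regulator Kcnrg. Kcne3 had 1 peak in young replicate 2.

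In all, channel peaks formed 99 regions, each being the union of peaks that overlapped on the same strand. Of these, 11 had a peak in all 6 lists (11.1%, beside 17.6% of the 24503 regions of the whole series), 5 were aged-only (5.05%, background 5.13%) and 2 young-only (2.02%, background 0.637%). The share of aged-only regions was close to that of the series. There were 14 aged-only regions without aged replicate 2 and 8 without young replicate 1 or young replicate 3. The numbers over all regions with these lists left out are not given. Over all genes the aged-only number went from 402 to 619 without aged replicate 2. It went to 586 and 651 without young replicates 1 and 3. The aged-only regions included those of Kcnab2, Kcnip3 and Kcnj6, and the young-only ones those of Kcnk9 and Kcnq5. Peaks in 1 list only made up 33 regions, 28 of them in an aged list. Peaks at both ages were found in 48. The shares of these patterns over all regions are not given, and the aged lists were the longer ones. Of all genes with a peak, 1322 had peaks in 1 aged list only and 808 in 1 young list only. Within each list, regions common to all 6 lists had a higher median score than regions of that list alone. The medians were 416 and 73.7 in young replicate 1, 137.5 and 68.1 in young replicate 2, and 441 and 276 in young replicate 3, where only 1 to 2 regions per list were of the second kind. They were 1072 and 79.1, 687 and 78.2, and 732 and 84.0 in aged replicates 1, 2 and 3, with 8 to 11 such regions.

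**Figure D4:**
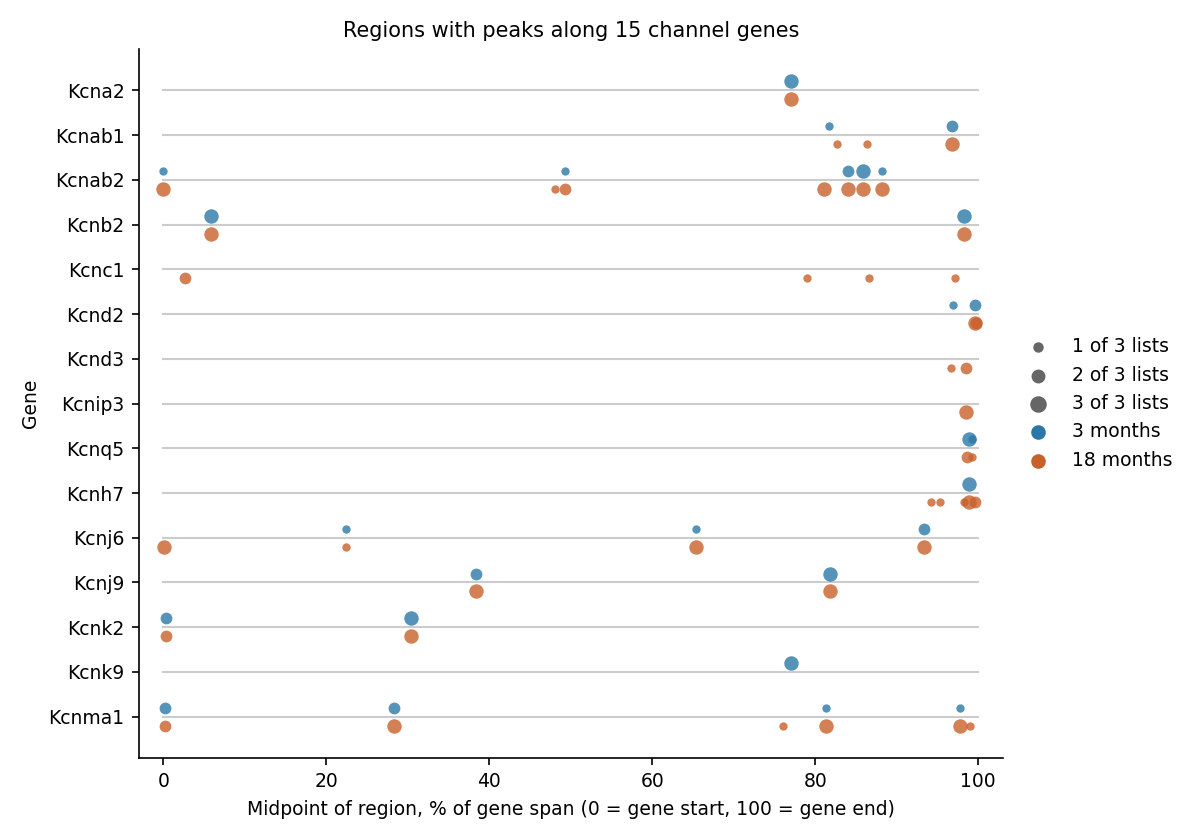
Midpoint of each region as a percent of the gene span from start (0) to end (100) (x axis) in 15 channel genes (y axis), blue for 3 and orange for 18 months, with point size for the number of lists with a peak. Kcnd3, Kcnc1 and Kcnip3 carry orange points only and Kcnk9 a blue point only.

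Most channel regions lay inside the gene span. Within 1000 bases of the gene start there were 9 of the 99 and within 1000 bases of the gene end 18. Between 14.5% and 24.3% of the channel peaks of a list lay at the gene end, against 12.5% to 14.2% of all peaks, and the channel share was higher in all 6 lists. At the gene start the shares were 6.25% to 12.7% and 9.19% to 11.2%. Of the regions common to all lists 5 of 11 lay at the gene end and 0 at the gene start. The shares of these places over all regions of the series, and over those common to all lists, are not given.

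Channel peaks were wide. Their median width in the young lists was 808.5, 697 and 668 bases and in the aged lists 677, 510 and 748, against 219 to 231 bases for all peaks, so the channel value was the higher in each of the 6 lists. Widths overlapped between ages (724.5 ± 74.2 and 645 ± 122 bases). The widest single peak, in Kcna2, covered 8547 bases. Some regions ended exactly at the annotated gene end: 6 of the 99 ended at the last base of the gene, among them those of Kcna1, Kcna2, Kcng1, Kcnip3 and Kcnj3.

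**Figure D5:**
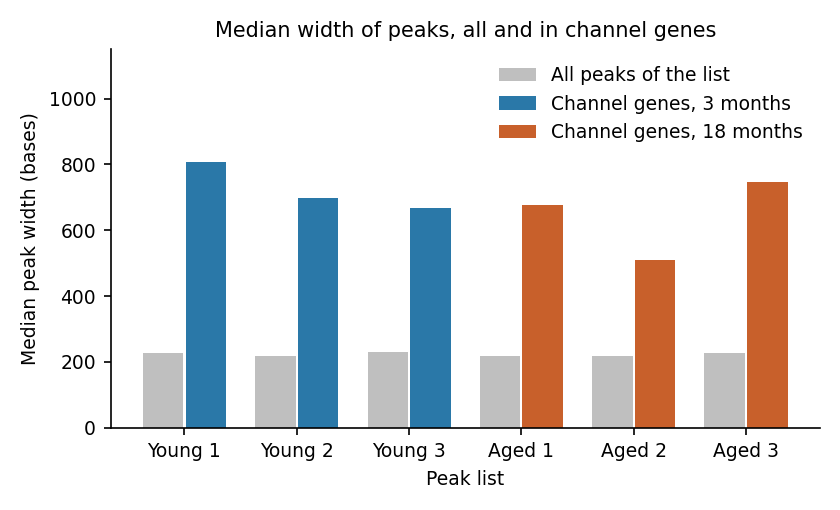
Median peak width in bases (y axis) for all peaks of a list and for peaks in channel genes (x axis: the 6 lists). Channel peaks have medians of 510 to 808.5 bases and all peaks of 219 to 231 bases.

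Some peaks covered an annotated start site. The table of start windows, from RefSeq (GRCm38.p6), held 93 windows for 68 of the 92 channel genes, and 11 windows in 9 genes had a peak of their own gene over the first transcribed base. In 9 of the 11 windows every such peak began exactly at that base. Counted as pairs of a peak and a start, 22 of 32 began there in channel genes (68.8%), beside 62.9% over all annotated starts. The sequences below show 100 bases before the start and the first 30 transcribed bases, 5' to 3' on the gene strand, with capitals for bases under a peak. They were chosen for the regions described above (Kcnk2 and Kcnj6), for the gene with many regions (Kcnma1) and for Kcnc1, which had peaks at 18 months only. Kcnip4 and Kcnj4 were added because each had a peak that began at an internal start. In the same region of Kcnip4, young replicate 3 had a peak that did not cover the start. It scored 50.1, beside 52.7 in aged replicate 2.
Kcnk2, chr1:189343678-189343807, minus strand, peak over the start in 3 young and 3 aged lists: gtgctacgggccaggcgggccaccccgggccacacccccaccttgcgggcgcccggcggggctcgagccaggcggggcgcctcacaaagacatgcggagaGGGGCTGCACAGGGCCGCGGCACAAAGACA
Kcnj6, chr16:94997667-94997796, minus strand, 0 young and 3 aged lists: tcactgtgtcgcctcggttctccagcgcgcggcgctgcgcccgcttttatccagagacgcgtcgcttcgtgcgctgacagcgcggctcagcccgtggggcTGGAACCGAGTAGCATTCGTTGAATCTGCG
Kcnma1, chr14:24004176-24004305, minus strand, 2 young and 2 aged lists: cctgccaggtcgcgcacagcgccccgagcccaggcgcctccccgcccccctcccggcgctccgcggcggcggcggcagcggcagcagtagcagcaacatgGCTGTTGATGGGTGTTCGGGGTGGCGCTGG
Kcnc1, chr7:46396368-46396497, plus strand, 0 young lists and 1 aged list: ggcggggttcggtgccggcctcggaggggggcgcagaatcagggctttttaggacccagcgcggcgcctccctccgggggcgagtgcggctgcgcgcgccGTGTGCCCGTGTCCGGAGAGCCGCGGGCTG
Kcnip4, chr5:49285630-49285759, minus strand, 0 young lists and 1 aged list: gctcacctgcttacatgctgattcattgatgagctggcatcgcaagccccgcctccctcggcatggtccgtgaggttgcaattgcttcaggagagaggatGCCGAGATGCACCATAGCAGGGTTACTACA
Kcnj4, chr15:79505212-79505341, minus strand, 0 young lists and 1 aged list: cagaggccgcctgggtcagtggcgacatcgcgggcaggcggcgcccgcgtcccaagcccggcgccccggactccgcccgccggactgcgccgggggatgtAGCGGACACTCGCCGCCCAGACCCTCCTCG

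These windows were rich in G and C. Each held 250 bases before the start and 50 transcribed bases, so the content below is mostly that of sequence before the start. The median G and C content of the 300-base windows was 62.7% for the 11 under a peak, 59.0% for the 56 of channel genes with a peak anywhere, 57.0% for the 37 of channel genes without one and 52.7% for all 32851 windows. In the first 50 transcribed bases, the letters CNGGG were found in 4 of the 11 windows under a peak (36.4%), in 42.9% of the 56, in 37.8% of the 37 and in 30.5% of all windows. On the other strand the shares were 27.3%, 32.1%, 40.5% and 26.1%, in the same order. The letters CTCCA were found in 0 of the 11, 10.7% of the 56, 18.9% of the 37 and 7.48% of all windows, and on the other strand in 1 of the 11 (9.09%), 1.79%, 8.11% and 10.5%. The motifs can overlap only where the last 2 letters of CTCCA are the first 2 of CNGGG.

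Proteins that bind, place or modulate potassium channels, taken as a list of 32 genes without a Kcn symbol, were read in the same way. Of the 32, 27 had a peak (84.4%, beside 43.4% of all genes), and 15 of the 27 had one in all 6 lists (55.6%, beside 32.0%). Longer genes more often had a peak, and these shares were not set beside those of genes of like length. Young lists had peaks in 17, 16 and 21 of them and aged lists in 25, 25 and 23, with no overlap (18.0 ± 2.65 and 24.3 ± 1.15, SD, n = 3). A peak in more aged than young lists was found in 11 of the 27 (40.7%, beside 42.7% of all genes) and in fewer in 1, Hcn3 (3.70%, beside 17.0%). The median difference over those with a peak was 0 lists, as for all genes.

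The aged-only partners (2 of 27, 7.41%, beside 4.23% of all genes) were Amigo1, a Kv2 auxiliary protein, and Cntnap1, a protein of the paranodes beside the node of Ranvier. The next genes were chosen after their values were seen. Ank3, which anchors Kv7 channels at the axon initial segment, had 8, 6 and 7 young and 12, 11 and 12 aged peaks, so the ages did not overlap. Dpp6, the auxiliary subunit of Kv4, had 3, 1 and 4 young and 9, 7 and 10 aged peaks, also without overlap. Hcn2, a hyperpolarisation-activated cation channel, had peaks in all 6 lists.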

How the data were processed

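Peak lists of 6 m5C-immunoprecipitated libraries, each set against its own input, were analysed (3 per age). Per the submitters' processing notes, cutadapt 1.9.3, HISAT2 2.0.4 and build mm10 were used, and the names of the peaks carry the word MACS. Not given in the sources used here were the caller's version and settings. The deposited score per peak is the authors' own value, on a scale with a minimum of 50 and a saturated value of 3100. No counts came with the lists, so depth is unknown and no interval that needs it is given.

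Peaks were assigned, with Python 3.11.15 and pandas 2.3.3, to the RefSeq spans of GRCm38.p6 (the mm10 build) that they overlapped by at least 1 base on the same strand. Strand came from the RefSeq start windows (68 channel genes) or, where a gene had none, from the majority of its peaks in no other gene (14). For the 10 channel genes of unknown strand, peaks on the strand of another gene were left out. Of 7051 genes with both, 99.8% had the same strand. The table holds no exons, so exon, intron and UTR are not given. Coordinates count from 1. Regions joined peaks sharing at least 1 base. Values per list were compared by two-sided exact permutation tests. Assignment and calls were run on simulated lists as a check of the code only. Each simulated peak lay inside a gene of known strand, so the reading of strand was not tested. The members, gene lists and tests were chosen with earlier results of these data known. Genes were named by rule: those restricted to 1 age, 12 with most peaks in all 6 lists, the largest differences (8 higher with age, 5 lower), the leading member of each family and those with restricted regions; the others are given by count, list or name. Alternatives were equal list lengths, score limits, overlap, strand, shared spans, region joining and leaving out lists; 2 were added after the data were seen (Kcnq1ot1 peaks, genes without a listed strand). Some genes and families that these rules cover are not reported here.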

Additional observations from a re-analysis of the deposited data

How the results depend on the processing

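The aged minus young difference was 0 channel genes with lists of equal length. Its direction, and that of the differences in peaks and in share, was the same under all other settings, with exact permutation p-values of 0.1 or 0.2 (the replicate block below apart). The share gave 0.2 with strand ignored, with Kcnq1ot1 peaks counted and without any 1 young list, where the gene count gave 0.2 too. Leaving out 1 list gave differences of 6.17 to 10.2 genes, 25.7 to 30.7 peaks and 0.0522 to 0.0833 percentage points of share. The counts of restricted genes were less firm. The 4 aged-only genes became 1 at equal length, and 2 (Kcnab1 and 1 other, neither called before) with scores at or above the list median. Over all genes 402 became 97 and 265. A score of at least 100 also gave 4 genes, but 2 of them were others, and over all genes it gave 337. Without 1 list there were 4 to 6, and 505 to 651 over all genes. Kcnk9 alone became 3 young-only genes at equal length (Kcnh6 and Kcnmb4 joined it), 0 with either score limit and 0 where genes without a listed strand were left out, and 1 to 2 without 1 list (2 without aged replicate 1 or 2). Over all genes the 77 young-only genes became 196 at equal length, 22 with scores of at least 100 and 25 with scores at or above the list median. They became 50 without genes that lack a listed strand, and 98 to 143 without 1 list. The 13 genes with peaks in all lists became 8 with either score limit. Aged-only regions went from 5 to 1 at equal length and to 3 without genes that lack a listed strand, and numbered 6 to 14 without 1 list (14 without aged replicate 2, 8 without young replicate 1 or 3). Young-only regions went from 2 to 0 with either score limit and to 1 without those genes, and were 2 to 3 without 1 list. Under these settings the numbers over all regions, and those of all genes with peaks in all lists, are not given. These changes are therefore not read as particular to channel genes. The causes were not tested. Same-numbered lists of the 2 ages deviated together with correlations of 0.0229, 0.108 and 0.0394 over genes. Lists of other numbers gave -0.0698 to 0.0372. Each aged list correlated best with the young list of its own number, but young replicate 1 correlated best with aged replicate 3. These small values do not settle whether the numbers pair samples, and the main tests were unpaired. With the replicate block the differences were 8 genes, 27.3 peaks and 0.067 percentage points of share, and the sign-flip p was 0.25 for each, the smallest that 3 pairs allow. Depth per library is unknown, and its part in these values was not tested.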
